A study of Mus musculus with 41 samples.

Results

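The heavy chain V segments of the mouse were followed in a droplet single-cell RNA-seq data set of the gut. They were taken as every gene symbol that starts with Ighv, which gave 121 of the 19221 genes measured, and all 121 were described, whatever their level. The table held 58067 cells of 27 libraries and 23898 Ighv UMIs (unique molecular identifiers, 1 per captured RNA molecule), or 0.934 in 10000 UMIs.

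An antibody heavy chain is encoded by a V, a D and a J segment that a developing B cell joins into 1 exon, and by a constant region gene that sets the isotype. A B cell keeps 1 productive V segment on 1 allele, so that its progeny, including plasma cells that secrete the antibody, share it. Plasma cells of the gut secrete mostly IgA, whose constant region is Igha, in polymers that are linked by the J chain (Jchain). The V segments lie in families of similar sequence.

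All mice were female BALB/cJ of 10 weeks. The food allergy mice had gone through an inflammatory reaction to ovalbumin, a protein of egg white, and the controls were untreated wild-type mice. From the lamina propria, the connective tissue of the gut wall, 3 libraries of food allergy mice and 3 of controls carried the label nonTB. Another library of each condition carried the label IgDLow. From Peyer's patches, follicles of lymphoid tissue in the gut wall, 9 food allergy and 10 control libraries were analysed. The titles give dates, numbered here in order: dates 1 to 5 for Peyer's patches, date 6 for nonTB libraries 1 and 2 of each condition, and date 7 for nonTB library 3 and the IgDLow libraries. No date held both tissues. The labels do not tie libraries to animals. The p-values below speak only of library-to-library spread, part of which may be technical. The IgDLow and nonTB libraries of date 7 may come from the same mice.

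Cells with at least 20 Jchain UMIs, called Jchain-high here, numbered 605, 629 and 624 in the nonTB food allergy libraries, against 508, 585 and 566 in the nonTB controls. Their summed plasma cell markers stood at 77140 to 99479 CPM (UMIs scaled to a common library total) in food allergy and 98632 to 106724 in controls, with none of the 8 markers at 0. Jchain, which the gate used, is among the 8 and made up most of these sums. Without Jchain the sums were 4233, 4251 and 5491 CPM in food allergy, against 4611, 4387 and 4670 in controls, so the conditions overlapped. In Peyer's patches the gate took 3 to 96 cells a library, and what it took differed by date. In the sums of dates 1 to 3 the 6 germinal centre B cell markers reached 218 to 1612 CPM, whereas in those of dates 4 and 5 they reached 12.8 to 137. Mast cell markers in the Jchain-high sums of the nonTB libraries stood at 172 to 463 CPM in food allergy and 1.62 to 3.37 in controls. Markers of dividing cells stood at 34.3 to 113 CPM in food allergy, against 21.8 to 32.8 in controls, and B cell markers at 681 to 720 in food allergy, against 788 to 837 in controls. These 3 lists moved with condition, and their part in the results below was not tested. Up to 7.69% of the cell barcodes of a library occurred in another library, the most between Peyer's patch libraries of date 2 (50 of 650 cells).

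The 121 segments span chromosome 12 from 113572927 to 116010093 on the minus strand of GRCm38 (2437 kb, GENCODE M21 annotation). The heavy constant regions lie beside them, with Ighm at 113418558 to 113422730. Of the 121 segments, 99 are annotated as V genes and 22 as pseudogenes, which still took 11.1% of the Ighv UMIs. Family 1 held 66 segments and 10391 UMIs, family 5 held 9 segments and 3004 UMIs, and the other 13 families held 1 to 9 segments each. BALB/c mice carry another Igh haplotype than the C57BL/6 mouse of the reference genome, so a segment's name here is that of the reference sequence its reads were assigned to, and may not be the BALB/c gene that was rearranged.

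The sequences of 3 segments are shown because the same cells carried UMIs of all of them (the cells are described further on). They are the last part of the coding sequence of Ighv1-77 (gene at chr12:115861867-115862355), Ighv1-78 (chr12:115868773-115869227) and Ighv1-85 (chr12:116000028-116000461), read 5′ to 3′ on the minus strand, from GENCODE M21 transcripts. Capitals mark the 44 positions at which the 3 are not all the same, beside 250 at which they are. The last 18 bases are the same in all of them, and so is a run of 30 bases.
Ighv1-77: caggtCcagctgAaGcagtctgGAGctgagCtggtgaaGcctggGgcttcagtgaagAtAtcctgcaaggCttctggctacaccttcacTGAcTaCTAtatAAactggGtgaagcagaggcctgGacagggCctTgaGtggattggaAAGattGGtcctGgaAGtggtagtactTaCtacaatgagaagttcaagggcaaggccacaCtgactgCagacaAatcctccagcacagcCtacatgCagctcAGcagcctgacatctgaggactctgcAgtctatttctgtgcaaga
Ighv1-78: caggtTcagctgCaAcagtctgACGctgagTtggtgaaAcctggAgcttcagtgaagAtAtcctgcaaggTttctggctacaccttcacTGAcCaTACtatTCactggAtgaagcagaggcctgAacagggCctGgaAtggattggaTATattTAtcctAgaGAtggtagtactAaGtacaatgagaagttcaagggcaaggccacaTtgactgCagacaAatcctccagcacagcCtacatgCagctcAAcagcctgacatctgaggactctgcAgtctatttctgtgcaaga
Ighv1-85: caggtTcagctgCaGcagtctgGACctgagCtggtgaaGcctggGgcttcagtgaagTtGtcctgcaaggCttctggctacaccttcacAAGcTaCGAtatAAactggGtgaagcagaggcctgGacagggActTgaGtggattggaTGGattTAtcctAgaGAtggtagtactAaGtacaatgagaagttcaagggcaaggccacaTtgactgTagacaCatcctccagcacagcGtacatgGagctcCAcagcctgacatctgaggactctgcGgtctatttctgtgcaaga

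The sequences of 4 other segments are given, as windows of the same length, because the comparisons turn on them. Ighv1-18 (chr12:114682632-114683065) was the segment most often dominant in a cell. Ighv2-3 (chr12:113611187-113611617), Ighv8-12 (chr12:115647945-115648387) and Ighv1-76 (chr12:115847881-115848331) were higher in food allergy. Here capitals mark the last TGT, the codon of the conserved cysteine near the 3′ end of the V segment, shortly before the join to D.
Ighv1-18: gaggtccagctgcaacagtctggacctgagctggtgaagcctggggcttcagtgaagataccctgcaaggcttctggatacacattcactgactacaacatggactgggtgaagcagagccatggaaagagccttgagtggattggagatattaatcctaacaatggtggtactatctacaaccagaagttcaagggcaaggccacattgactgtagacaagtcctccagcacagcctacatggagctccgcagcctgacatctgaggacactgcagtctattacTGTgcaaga
Ighv2-3: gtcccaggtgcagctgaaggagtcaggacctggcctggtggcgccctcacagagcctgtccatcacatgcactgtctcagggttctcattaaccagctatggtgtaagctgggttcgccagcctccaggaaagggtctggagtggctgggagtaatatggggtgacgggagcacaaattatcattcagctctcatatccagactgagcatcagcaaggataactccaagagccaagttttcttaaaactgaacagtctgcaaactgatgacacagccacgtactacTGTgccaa
Ighv8-12: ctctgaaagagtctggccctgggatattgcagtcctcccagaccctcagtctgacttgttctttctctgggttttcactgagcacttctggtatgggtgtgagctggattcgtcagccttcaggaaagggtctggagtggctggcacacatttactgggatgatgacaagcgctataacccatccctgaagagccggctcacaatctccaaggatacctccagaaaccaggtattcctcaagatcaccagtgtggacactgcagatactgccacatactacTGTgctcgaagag
Ighv1-76: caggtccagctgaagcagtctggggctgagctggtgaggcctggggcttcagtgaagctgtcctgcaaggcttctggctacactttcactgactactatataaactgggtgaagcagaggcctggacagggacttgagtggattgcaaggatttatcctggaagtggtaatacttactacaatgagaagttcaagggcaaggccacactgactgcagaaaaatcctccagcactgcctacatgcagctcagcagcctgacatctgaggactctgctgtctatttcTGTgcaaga

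Use of the 121 segments was uneven. A segment held 2 to 1640 UMIs over all cells, with a median of 103. The 10 most used segments held 37.2% of the UMIs, and 40 segments had fewer than 50. Ighv9-3 led with 1640 UMIs in 1268 cells, Ighv2-3 followed with 1135 UMIs in only 415 cells, and Ighv4-1 had 1048 UMIs in 943 cells. Ighv2-3 UMIs were concentrated: 435 came from 1 cell, against at most 7 from any cell for Ighv4-1. In Jchain-high cells the UMIs of a segment had a rank correlation of 0.06 with its share of A bases and -0.14 with its position on the chromosome (across the segments with an annotated value, as a description: they share the libraries). Coding lengths ran from 303 to 394 bases and 3′ UMI counts do not scale with length, so levels of segments were set side by side without a length correction.

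In Jchain-high cells of the lamina propria the Ighv level was low beside the constant regions. It stood at 1.66, 1.59 and 3.41 UMIs per 10000 in the nonTB food allergy libraries, against 1.60, 1.31 and 2.23 in the nonTB controls. The IgDLow libraries had 3.73 in food allergy and 3.10 in control. The 2 conditions overlapped, and the date 7 libraries were the highest of each condition. In nonTB Jchain-high cells 0.824 to 2.61 Ighv UMIs came with every 1000 heavy constant region UMIs in food allergy, and 0.799 to 1.73 in controls.

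Ighv RNA was also found in cells that should lack it. Cells with T cell or innate lymphoid markers and no B cell marker had at least 1 Ighv UMI in 14.7%, 18.02% and 37.1% of cells in nonTB food allergy, against 14.6%, 15.95% and 33.1% in controls, at median depths of 1329 to 2110 UMIs. Jchain-high cells, with median depths of 8909 to 11942 UMIs in these libraries, had one in 67.6%, 71.7% and 89.6% of cells in food allergy, against 60.8%, 58.3% and 82.2% in controls. With every cell thinned to 1000 UMIs, the Jchain-high share was 14.4%, 14.9% and 24.7% in food allergy, against 13.9%, 12.3% and 19.4% in controls. The thinned T and innate lymphoid share was 10.1%, 11.2% and 21.7% in food allergy, against 8.85%, 9.85% and 15.5% in controls. In all 6 libraries the Jchain-high cells stood above the other gate. Unthinned, that gate held 1.12, 1.21 and 2.33 Ighv UMIs per 10000 in food allergy, against 0.95, 1.05 and 1.63 in controls. How much of the Ighv RNA of Jchain-high cells is of this sort was not tested. Since single Ighv UMIs also occurred in the T and innate lymphoid gate, a cell's V segment was called from at least 3 Ighv UMIs. Whether that limit clears RNA of the kind seen in that gate was not tested, and a call can rest on 2 of 3 UMIs. Per 1000 heavy constant UMIs, the T and innate lymphoid gate had 43.2 to 118 Ighv UMIs, far above the Jchain-high cells. What lies behind that difference was not tested.

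**Figure D1:**
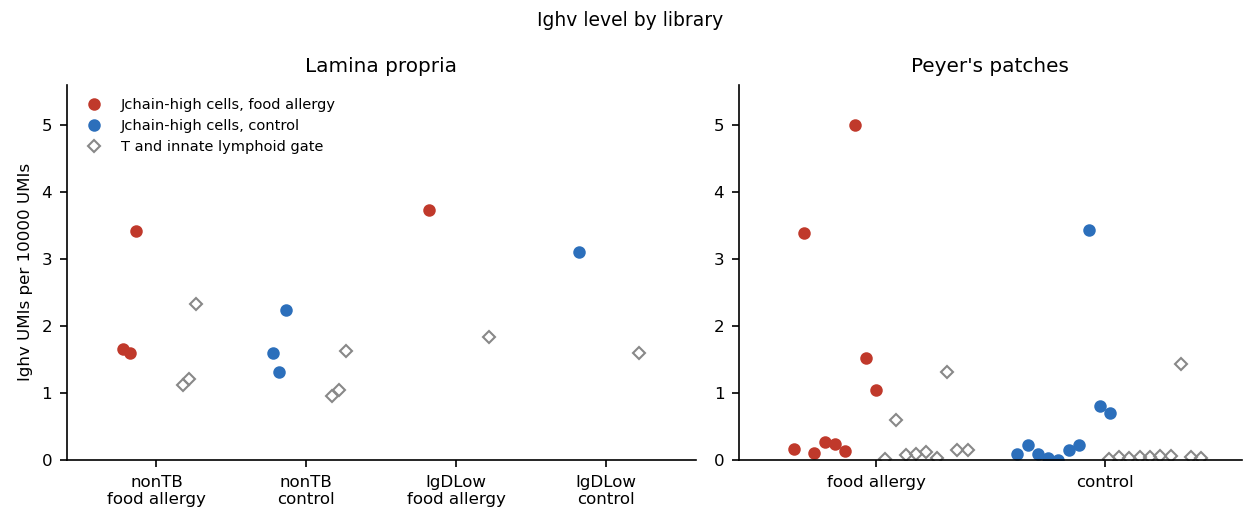
Ighv UMIs per 10000 UMIs of a library (vertical axis) in Jchain-high cells (filled circles, food allergy red, control blue) and in the T and innate lymphoid gate (open diamonds), 1 point a library. Jchain-high cells of the nonTB libraries reached 1.59 to 3.41 in food allergy and 1.31 to 2.23 in controls, with the T and innate lymphoid gate lower in each of these libraries.

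Pairs of UMIs within a cell showed how far the Jchain-high cells held RNA of 1 segment. In nonTB food allergy libraries 10.8%, 10.2% and 7.04% of pairs of Ighv UMIs in a cell were of the same segment, averaged over the 253, 273 and 459 Jchain-high cells with at least 2 Ighv UMIs. In nonTB controls the values were 12.0%, 13.0% and 12.2%, over 162, 182 and 340 cells. Any 2 UMIs drawn from the pooled Jchain-high cells of a library matched in 2.28%, 2.21% and 3.35% of cases in food allergy, and in 2.72%, 3.09% and 3.51% in controls. Within-cell matching was higher than pooled matching in all 6 libraries. In cells outside the gate it was 1.74%, 1.02% and 3.46% in food allergy, against 2.33%, 7.50% and 2.35% in controls. The pooled values of those cells were 3.14%, 2.74% and 3.81% in food allergy, against 3.14%, 3.80% and 3.22% in controls. Outside the gate, within-cell matching was below pooled matching in 5 of the 6 nonTB libraries and above it in control library 2, whose 7.50% came from 40 cells. In the IgDLow libraries it was 2.32% beside a pooled 2.79% in food allergy, against 3.78% beside a pooled 3.08% in control, from 230 and 240 cells.

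**Figure D2:**
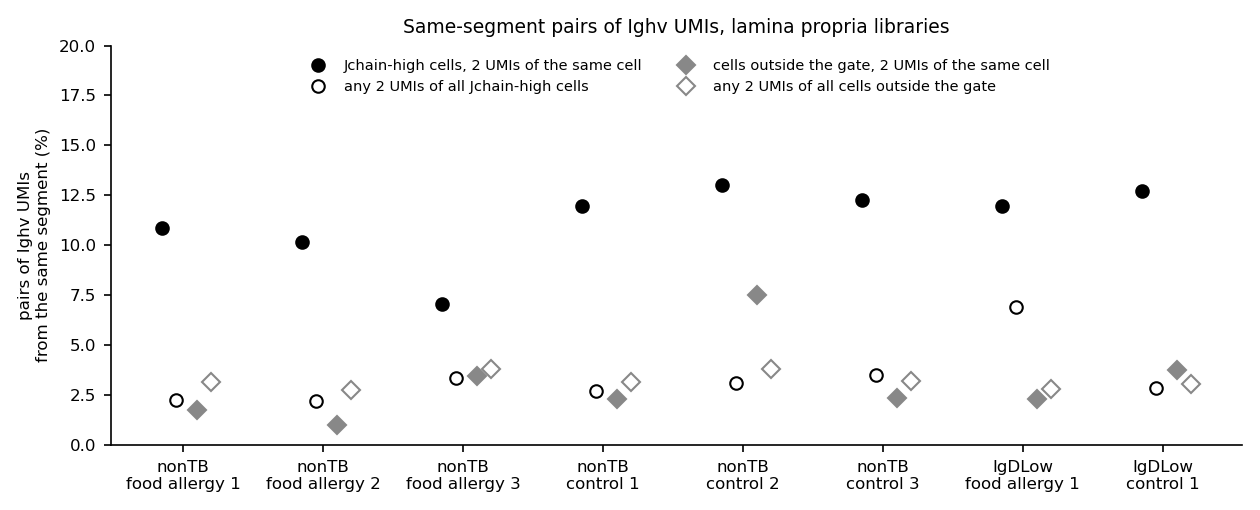
Share of pairs of Ighv UMIs that are of the same segment (vertical axis) in the 8 lamina propria libraries: within Jchain-high cells (filled circles), over pooled UMIs of those cells (open circles), and the same for cells outside the gate (diamonds). Within-cell values of Jchain-high cells lie at 7.04% to 13.0%, above the pooled values of their library, which lie at 2.21% to 6.89%.

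A dominant segment was called where a cell had at least 3 Ighv UMIs and 1 segment held over 50% of them. It was found in 345 of the 5938 Jchain-high cells of all tissues. In nonTB libraries the share was 4.63%, 6.20% and 5.29% of Jchain-high cells in food allergy (mean 5.37% ± 0.79, SD, n = 3), against 4.53%, 3.25% and 8.66% in controls (mean 5.48% ± 2.83, SD, n = 3), so the conditions overlapped. Ighv1-18 was dominant in 9 of 100 called cells in food allergy, in all 3 libraries, and in 15 of 91 in controls, all in control library 3. In food allergy Ighv5-17 followed with 8 cells and Ighv1-14 with 6. In controls Ighv1-15, Ighv1-63 and Ighv3-5 followed with 7 cells each. The IgDLow libraries had 65 called cells of 1228 in food allergy (5.29%, Wilson 95% interval 4.17% to 6.69%), led by Ighv5-17 and Ighv9-3 with 7 each. The IgDLow control had 50 of 501 (9.98%, 7.65% to 12.9%), led by Ighv1-18 with 7. These intervals cover counting error only, and the median depth of the Jchain-high cells was 2721 UMIs in IgDLow food allergy, against 14589 in its control. Peyer's patches had 28 called cells in food allergy, 4 of them Ighv4-1, and 11 in controls, of which Ighv1-76 and Ighv9-3 had 2 each.

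Usage, the share of a library's Ighv UMIs in Jchain-high cells, was led in the nonTB libraries by family 4, 9 and 1 segments. Ighv4-1 stood at 5.49%, 3.11% and 1.42% in food allergy, against 7.77%, 10.6% and 4.95% in controls. Ighv9-3 stood at 5.10%, 8.19% and 2.57% in food allergy, against 3.95%, 4.97% and 6.87% in controls. Ighv4-2, a pseudogene of the reference, stood at 3.27%, 1.98% and 1.00% in food allergy, below all controls at 5.27%, 6.34% and 3.57%. For Ighv4-1 and Ighv9-3 the conditions overlapped. Ighv1-77 ranged from 0.94% to 9.14% in food allergy and from 0 to 6.06% in controls. Ighv1-18 had no UMI in control libraries 1 and 2 and 7.66% in control library 3, against 2.38% to 5.10% in food allergy. Ighv1-63 reached 9.84% in control library 3, against 0.40% and 1.24% in the other controls and 0.50% to 3.18% in food allergy. Those 3 segments differed more among libraries of 1 condition than between the conditions. Ighv3-5, Ighv5-17, Ighv1-9 and Ighv5-6 completed the 10 most used, with means over the 6 libraries of 2.45% to 2.83%.

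**Figure D3:**
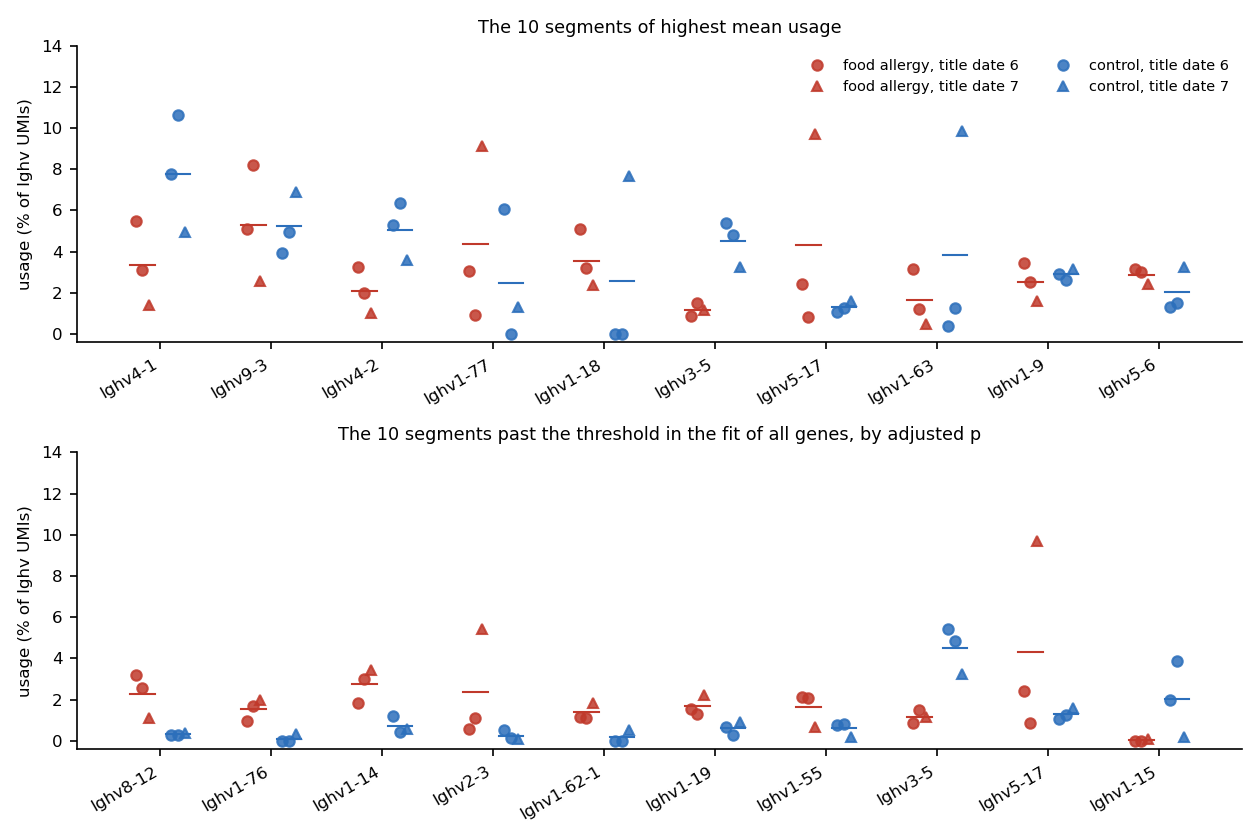
Usage (percent of Ighv UMIs of Jchain-high cells, vertical axis) of the 10 most used segments and of the 10 segments past the threshold in the nonTB libraries, food allergy in red and control in blue. Circles are date 6, triangles date 7, and lines the mean of 3 libraries. Ighv8-12 is at 1.11% to 3.18% in food allergy and 0.26% to 0.40% in controls, while Ighv2-3 and Ighv5-17 are far higher in the date 7 food allergy library, at 5.41% and 9.71%, than in the other food allergy libraries.

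Libraries of the same date and condition were the most alike. Likeness was the usage that 2 libraries share, summed over the 121 segments. The 4 pairs of lamina propria libraries with the same date and condition shared 67.4% to 74.5%, among them the nonTB and IgDLow libraries of date 7. The other 24 pairs shared 37.6% to 63.4%. Pairs of the same condition on different dates shared 48.4% to 53.4%, and pairs of different conditions on the same date 46.4% to 58.7%. Since dates 6 and 7 may stand for separate mice as well as separate runs, mouse, date and library cannot be told apart here. The Ighv UMIs of the T and innate lymphoid gate shared 55.3% to 65.4% with the Jchain-high cells of their own library in nonTB food allergy and 55.6% to 68.9% in controls, from only 66 to 226 UMIs a library.

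**Figure D4:**
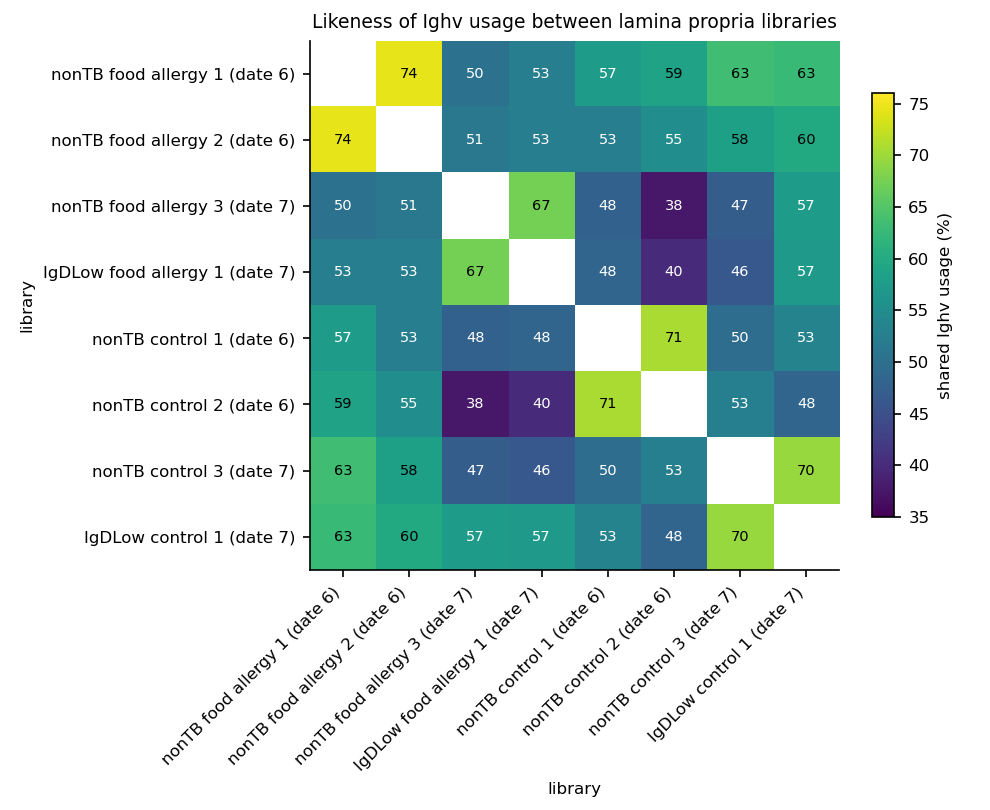
Shared Ighv usage (percent, colour and figures) between the 8 lamina propria libraries, with food allergy before control on both axes and the title date in brackets. The 4 brightest pairs off the diagonal, at 67.4% to 74.5%, join libraries of the same date and condition.

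The number of segments in use overlapped between the conditions. Set to 725 Ighv UMIs each, the nonTB libraries would show 84.3 to 88.7 segments in food allergy and 85.9 to 88.0 in controls. The effective number of segments (the number of equally used segments that gives the same Simpson index) was 56.8, 60.4 and 48.5 in food allergy, against 51.0, 49.2 and 45.5 in controls. The IgDLow food allergy library had the lowest of the lamina propria at 34.2, against 50.8 in the IgDLow control, and 10.3% of its Ighv UMIs came from 1 cell.

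Whether food allergy changed single segments in the lamina propria was tested on UMI counts summed over the Jchain-high cells of each nonTB library. The fit was edgeR's quasi-likelihood test over all genes, with the title date as a term and Benjamini-Hochberg adjustment at 0.05. The Ighv level of the T and innate lymphoid gate, given above, was not subtracted. Of 121 segments 55 passed the filter on low counts, and 10 of them passed the test: 8 were higher and 2 lower in food allergy. Over all 9290 genes tested, 3.99% passed, 2.92% higher and 1.08% lower. DESeq2 called 6 higher and 2 lower of the 55, beside 2.73% of all genes (2.13% higher, 0.603% lower). With no filter beyond 1 UMI it was 18 higher and 7 lower of 118 segments, beside 6.31% (4.14% higher, 2.17% lower). The filter needs enough counts in only part of the libraries, so a segment can pass it through the condition in which it is high. Ighv2-3 and Ighv1-15 passed the filter here but not in the fit with no title date term. For that reason no count over the 55 is given as support. For description, their median log2 fold change was 0.73, beside -0.01 over all genes tested. Of the 118 segments with any UMI, 15 had all food allergy libraries above all controls in CPM and 6 had them below, or 17.8%. Over all 15515 genes with a UMI 15.2% did not overlap, 607 of them above and 1753 below the controls.

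Ighv8-12 had 33, 27 and 29 UMIs in the food allergy libraries, against 2, 2 and 6 in the controls. It averaged 4.37 ± 0.79 CPM in food allergy, against a control mean of 0.56 ± 0.29 CPM (SD, n = 3 each). All food allergy libraries lay above all controls, with a log2 fold change of 2.97 (SE 0.41, adjusted p = 0.0084 in edgeR's quasi-likelihood test). The UMIs came from 24, 25 and 22 cells in food allergy, at most 6 from 1 cell. In the IgDLow libraries, which the test did not use, its usage was 2.14% in food allergy (exact binomial 95% interval 1.69% to 2.68%) and 2.12% in control (1.58% to 2.80%), so no difference was detectable there. Of the 49 control UMIs of the IgDLow library 23 came from 1 cell. Intervals here cover counting error only.

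Ighv1-76 had 10, 18 and 51 UMIs in food allergy, against 0, 0 and 5 in controls. The fitted log2 fold change was 3.82 (SE 0.58, adjusted p = 0.011 in edgeR's test). Ighv1-62-1, which took UMIs in the same cells as Ighv1-76, had 12, 12 and 48 UMIs in food allergy, against 0, 0 and 8 in controls (log2 fold change 3.09, SE 0.56, adjusted p = 0.020 in edgeR's test). For both, every food allergy library stood above every control, and the date 7 library was the highest of its condition. With 2 control libraries at 0, these fold changes depend on the prior count of the fit. In the IgDLow libraries Ighv1-76 had 51 UMIs in food allergy (1.44%, 1.07% to 1.89%) and 1 UMI in control (0.04%, 0.00 to 0.24%).

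Ighv1-14, a pseudogene of the reference, had 19, 32 and 90 UMIs in food allergy, against 9, 3 and 9 in controls (log2 fold change 2.50, SE 0.40, adjusted p = 0.013 in edgeR's test). Ighv1-19 had 16, 14 and 58 in food allergy, against 5, 2 and 14 in controls (log2 fold change 1.90, adjusted p = 0.021 in edgeR's test). Their usage did not overlap between conditions, and both were spread thinly, with at most 4 UMIs a cell. Ighv1-55 had 22, 22 and 18 UMIs in food allergy, against 6, 6 and 3 in controls (log2 fold change 1.87, adjusted p = 0.024 in edgeR's test). Its food allergy UMIs of date 6 came from 8 cells in each library, and its adjusted p was 0.068 in DESeq2.

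Ighv2-3 and Ighv5-17 differed mainly on date 7. Ighv2-3 had 6, 12 and 141 UMIs in food allergy, against 4, 1 and 1 in controls (log2 fold change 4.30, SE 0.75, adjusted p = 0.017 in edgeR's test). Of the 141 UMIs of food allergy library 3, 46 came from 1 cell. Ighv5-17 had 25, 9 and 253 UMIs in food allergy, against 8, 9 and 24 in controls (log2 fold change 2.34, SE 0.49, adjusted p = 0.033 in edgeR's test). Its 253 UMIs came from 192 cells, 30.8% of the Jchain-high cells of that library, with at most 5 in a cell. Ighv5-17 also made up 33 of the 220 Ighv UMIs of the T and innate lymphoid gate of that library, and 1.52% to 3.54% of those UMIs in the nonTB controls. Without food allergy library 3 the adjusted p was 0.355 for Ighv2-3 and 0.471 for Ighv5-17, and without control library 3 it was 0.197 and 0.403. With DESeq2 it was 0.327 for Ighv2-3 and 0.405 for Ighv5-17.

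Lower in food allergy were Ighv3-5 and Ighv1-15. Ighv3-5 had 9, 16 and 30 UMIs in food allergy, against 41, 35 and 49 in controls (log2 fold change -1.38, SE 0.28, adjusted p = 0.030 in edgeR's test). It averaged 2.59 ± 1.26 CPM in food allergy, against a control mean of 7.39 ± 1.17 CPM (SD, n = 3 each), with no overlap. The IgDLow libraries had 0.96% in food allergy and 2.77% in control. Ighv1-15 had 0, 0 and 2 UMIs in food allergy, against 15, 28 and 3 in controls (log2 fold change -4.35, SE 0.93, adjusted p = 0.033 in edgeR's test). Its control UMIs came from 7, 10 and 3 cells, and the IgDLow libraries had 0.31% in food allergy and 0.13% in control, the other way round.

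The 10 calls rested on few libraries. Without food allergy library 1 none of 52 segments passed, beside 33 genes higher and 8 lower of 9236. There 21 segments had an unadjusted p under 0.05 in edgeR's test, beside 1497 of the 9236 genes. Without control library 2 only 1 of 54 segments passed, beside 34 genes higher and 17 lower of 9199. Without the title date term 1 of 40 segments passed, beside 38 genes higher and 16 lower of 8875. Every direction was the same under each alternative in which a segment could be tested, and Ighv8-12 passed in 16 of 18 alternatives, Ighv1-14 in 15 of 18 and Ighv1-55 in 8 of 16. Counting each cell at most once per segment, an alternative chosen after seeing the data, 7 segments were higher and 1 lower of 46 tested, beside 4.07% of all genes (2.97% higher, 1.10% lower). With library size set to the sum of Ighv UMIs, so that a fold change is one of usage, 9 were higher and 8 lower of 55, beside 27.8% of all genes (1.31% higher, 26.5% lower), whose median shifted by -0.45 on the log2 scale. Between the IgDLow libraries 9 of the 10 segments had usage in the direction of the nonTB fit, for Ighv8-12 by a ratio of only 1.01. Those libraries share a date with nonTB library 3 of each condition and were as alike to it as replicates, and so are not an independent repeat.

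By family, only families 8 and 14 did not overlap between the nonTB conditions, of 15. That is near the 15.2% of all genes with a UMI that did not overlap in CPM, so it is given as a description only. Family 8, whose 7 segments include Ighv8-12, held 4.72%, 3.01% and 3.03% of Ighv UMIs in food allergy, against 0.92%, 1.52% and 1.19% in controls. Family 14 held 2.50%, 2.17% and 1.27% in food allergy, against 4.87%, 4.0% and 6.34% in controls. In the IgDLow libraries family 8 held 2.93% in food allergy, against 4.90% in control, the other way round from the nonTB libraries. Family 14 held 0.99% there in food allergy, against 3.68% in control. The largest family, family 1, held 49.4% ± 2.79 in food allergy, against a control mean of 43.9% ± 4.67 (SD, n = 3 each), and overlapped.

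Among other genes of the antibody locus and its programme, in the same fit, 1 of 8 heavy constant region genes was higher in food allergy and 1 lower. Ighg1, the constant region of IgG1, had a log2 fold change of 2.56 and Ighd, that of IgD, one of -4.06 (adjusted p of both under the threshold in edgeR's test). Of 14 genes of the plasma cell programme, Mzb1 (0.43), which helps antibody assembly, and Tnfrsf17 (0.48), a survival receptor of plasma cells, were higher, and Xbp1 (-0.38), a driver of secretion, was lower. Of the 3 octamer factor genes, whose proteins bind V promoters, Pou2f1 (-0.72) was lower. None of the 4 genes for recombination, hypermutation and class switching that could be tested, of 9, passed.

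The cell's isotype, taken as the heavy constant region with most UMIs, was Igha in 97.8% of nonTB Jchain-high cells in food allergy and 99.4% in controls. Ighg1 led in 26 nonTB cells in food allergy and in 0 control cells, and in 39 and 1 cells of the IgDLow libraries. Of the Ighg1 cells of food allergy 2 nonTB and 3 IgDLow cells had a dominant segment: Ighv1-14 and Ighv5-17, and Ighv1-39, Ighv1-76 and Ighv5-17. In Peyer's patch controls 3 Ighg1 cells had one, Ighv1-76 in 2 cells of library 9 and Ighv9-3 in 1 cell of library 6. In the order given, the segment held 3 of 4 and 2 of 3 Ighv UMIs in nonTB, and 20 of 28, 8 of 14 and 3 of 4 in IgDLow. In the Peyer's patch controls it held 3 of 5, 2 of 3 and 2 of 3. Within 1 library, the only heavy and kappa pair (called as described further on) that had 3 or more cells and held an Ighg1 cell was Ighv5-17 with Igkv12-44 in the IgDLow food allergy library, with 3 cells, 1 of them Ighg1. Across libraries, Ighv1-76/Ighv1-62-1 with Igkv3-7 held Ighg1 cells in 4 of its 7 libraries. They were 1 of its 2 cells in the IgDLow food allergy library, its only cell in Peyer's patch food allergy library 7, both of its cells in Peyer's patch control library 9 and its only cell in control library 10. Ighe, the constant region of IgE, reached 5 UMIs in 58 cells, of which 41 were of nonTB and 11 of IgDLow food allergy and 4 of nonTB controls. None of those cells had Ighe as its isotype, and 10 had no Ighv UMI.

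Several segments took UMIs in the same cells. A pair of segments was called linked where at least 5 Jchain-high cells had at least 2 UMIs of both and these made up at least 25% of the cells of the rarer one, a rule chosen after seeing the data. This gave 12 pairs in 9 sets: Ighv4-1 with Ighv4-2, Ighv9-3 with Ighv9-1 and Ighv9-2, Ighv1-77 with Ighv1-78 and Ighv1-85, Ighv1-63 with Ighv1-73, Ighv1-18 with Ighv1-21, Ighv1-55 with Ighv1-62, Ighv1-76 with Ighv1-62-1, Ighv5-6 with Ighv5-9, and Ighv14-3 with Ighv14-2. All partners were of 1 family. Their sequences were 87.7% to 97.2% identical, with a median of 93.3%, beside a median of 84.0% over the 2268 other pairs of the same family. Those other pairs ran from 66.3% to 99.7%, so some unlinked pairs were more alike than any linked one. The linked partner was the most similar segment in some sets, such as Ighv1-63 with Ighv1-73, but not in others. Ighv1-18 was most similar to Ighv1-26 (96.9%), against 93.4% with Ighv1-21, and Ighv1-76 to Ighv1-77 (94.6%), against 87.7% with Ighv1-62-1. Partners lay 6.91 to 461 kb apart. Ighv4-2, Ighv1-73, Ighv1-21 and Ighv1-62 are pseudogenes of the reference. Whether reads of 1 rearranged BALB/c gene were spread over several reference segments, or the cells carry RNA of several, cannot be told apart in these files.

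The clearest set was Ighv1-77, Ighv1-78 and Ighv1-85, whose sequences are printed above. They differ from each other at 27 to 32 of the printed positions. Of the 16 cells with at least 10 UMIs over the 3 segments, 15 had UMIs of all of them. In food allergy library 3 of nonTB, 1 cell had 82, 47 and 37 UMIs of Ighv1-77, Ighv1-78 and Ighv1-85, and another had 83, 30 and 35. In the IgDLow control 1 cell had 70, 47 and 37. In the 13 lamina propria cells with all 3 segments, Ighv1-77 made up 38.0% to 60.0% of the set. The exception was an IgDLow food allergy cell with 62 UMIs of Ighv1-77 and none of the others, next to 19 of Ighv1-63. A Peyer's patch cell of control library 8 had 19, 15 and 28 UMIs with no Jchain, no Igkc and 7 Ighm UMIs. The set occurred in libraries of both conditions.

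**Figure D5:**
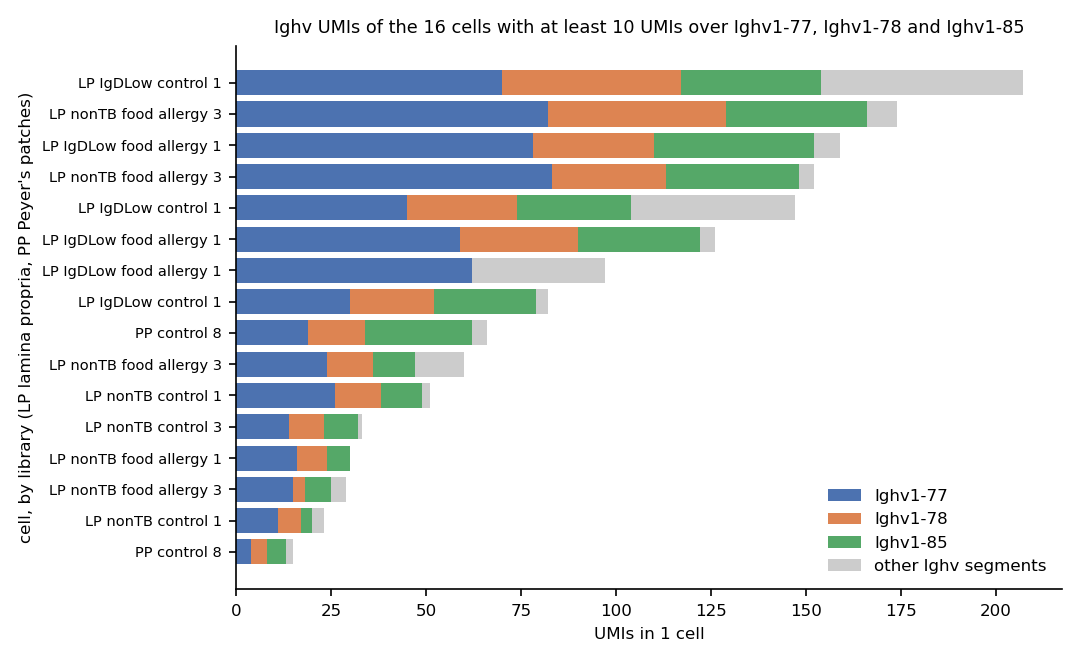
UMIs (horizontal axis) of Ighv1-77, Ighv1-78, Ighv1-85 and all other Ighv segments in each of the 16 cells (rows, by library, ordered by Ighv UMIs) with at least 10 UMIs over the 3 segments. All but 1 cell hold all 3, with Ighv1-77 the largest in the lamina propria cells and Ighv1-85 in the Peyer's patch cells of control library 8.

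A few cells carried most of the UMIs of some segments. The highest was an IgDLow food allergy cell with 482 Ighv UMIs in 15699 UMIs, 435 of them Ighv2-3, and the next a cell of the same library with 203 of Ighv2-3 among 210. Both also held Ighv1-66, with 38 and 7 UMIs, as did the nonTB food allergy cell with 46 Ighv2-3 UMIs, which had 8 of Ighv1-66. The usage of Ighv2-3 in the IgDLow libraries was 21.7% in food allergy and 0.48% in control, and 10.9% in food allergy without its top cell. In the other direction, Ighv4-1 was never seen with more than 7 UMIs in a cell.

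Heavy segments were set beside the light chain of the same cell, called by the same rule. Iglv1, a lambda segment, was called in 2868 of the 3274 Jchain-high cells with a light chain call, and cells led by it dominated all pairs. That call does not mark cells without kappa RNA: of the 7 cells with an Iglv1 call, a dominant heavy segment and an isotype other than Igha, 6 also had a kappa segment by the rule applied to Igkv alone. The partner of the heavy chain is therefore not established for Iglv1 pairs. The most frequent were Ighv9-3 with Iglv1 (16 cells of 6 libraries), Ighv1-18 with Igkv3-7 (14 cells of 4 libraries), Ighv3-5 with Iglv1 (13 of 6), and Ighv1-63 and Ighv4-1 with Iglv1 (10 cells each). With kappa segments only and linked heavy segments merged, both chosen after seeing the data, 202 cells had a pair. Ighv1-18/Ighv1-21 with Igkv3-7 led with 26 cells of 6 libraries, followed by Ighv1-63/Ighv1-73 with Igkv1-135 (18 cells of 8 libraries) and Ighv1-76/Ighv1-62-1 with Igkv3-7 (11 cells of 7 libraries). The other pairs had at most 4 cells.

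The pair of Ighv1-18 and Igkv3-7 was seen mainly on date 7 in controls. The shares that follow count cells with at least 1 Ighv1-18 UMI, and cells led by another kappa segment show the share found without Igkv3-7. Of Jchain-high cells led by Igkv3-7, 20 of 28 (71.4%) had an Ighv1-18 UMI in nonTB control library 3, against 6.92% of the cells led by another kappa segment. In the IgDLow control it was 12 of 18 (66.7%), against 3.88%. In the nonTB food allergy libraries it was 28.0%, 16.7% and 15.2% of 25, 30 and 33 cells, against 3.29%, 4.10% and 7.88% of other kappa cells. The IgDLow food allergy library had 3 of 32 cells (9.38%), against 2.92%. In each of these 6 libraries the share was higher beside Igkv3-7. In control library 2, 0 of 3 such cells had one. In control library 3 the 13 cells of this pair were all Igha cells, and 7 such cells were found in the IgDLow control of the same date.

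In Peyer's patches the Jchain-high cells gave few Ighv UMIs, 388 in food allergy and 191 in controls. The level per 10000 UMIs had a median of 0.270 in food allergy (0.111 to 5.00) and of 0.191 in controls (0 to 3.43). The date 4 libraries were the highest of both conditions. In that date's T and innate lymphoid gate 39.8% of cells had an Ighv UMI in food allergy and 36.4% in control, with only 21 and 26 Jchain-high cells in the libraries. Ighv4-1, Ighv4-2, Ighv1-76, Ighv1-62-1 and Ighv1-55 had the highest mean usage over the date and condition sums, at 6.06% to 4.28%, followed by Ighv2-3, Ighv9-3, Ighv10-1, Ighv5-6 and Ighv1-56. These means rest on 3 to 184 UMIs a sum: the values of Ighv1-55, Ighv10-1 and Ighv1-56 came mostly from the date 3 control, where each had 1 of 3 UMIs.

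Between food allergy and control Peyer's patches, tested on 5 sums of a date each, 6 of 121 segments passed the filter on low counts and none passed the test in edgeR's quasi-likelihood fit, 0 by DESeq2 and 1 at an unadjusted p under 0.05. Over all 7347 genes tested 0.231% passed (0.109% higher, 0.122% lower). Ighv4-1 had 4, 0, 0, 3 and 16 UMIs over dates 1 to 5 in food allergy, against 3, 1, 0, 0 and 5 in controls (log2 fold change 1.92, SE 0.92, adjusted p = 0.999 in edgeR's test). Ighv1-76 had 23 UMIs on date 4 in food allergy and 10 on date 5 in controls, with at most 1 in the other sums. At this depth no difference was detectable.

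Set against Peyer's patches, the lamina propria nonTB Jchain-high cells had more of the 5 segments that could be tested. All 5 passed in edgeR's test, beside 45.2% of all genes (20.3% higher, 24.9% lower), so a call is common in this comparison. Here too a segment can pass the filter on low counts through the tissue in which it is high. That all 5 were higher is therefore not given as support for a difference between the tissues. Ighv1-18 had a log2 fold change of 2.95 (SE 1.06, adjusted p = 0.033), Ighv9-3 of 2.62, Ighv4-2 of 2.44, Ighv4-1 of 2.34 and Ighv5-6 of 2.25 (adjusted p 0.019 to 0.028 in edgeR's test). Ighv9-3 had 53, 87 and 67 UMIs in the nonTB food allergy libraries and 30, 36 and 104 in the nonTB controls, in sums of 4752953 to 7635994 UMIs. In Peyer's patches it had 0, 4, 0, 2 and 3 UMIs over dates 1 to 5 in food allergy and 1, 2, 0, 16 and 0 in controls, in sums of 132570 to 2324983 UMIs. The groups overlapped per UMI, since the date 4 control was high, and the sums of dates 1 to 3 held germinal centre markers. None of the 5 passed in DESeq2 or with library size set to the Ighv sum, which turned the fold changes of Ighv4-1, Ighv4-2 and Ighv5-6 negative and moved the median of all genes to -4.09. Without date 2, and without date 6, no segment passed either. With the Peyer's patch sums of dates 4 and 5 only, none of 41 segments passed, beside 7.96% of all genes (3.87% higher, 4.09% lower). With no filter beyond 1 UMI 61 of 118 were higher, beside 26.9% (12.8% higher, 14.1% lower). Tissue, date and sort cannot be told apart. In the same fit the plasma cell programme was higher in the lamina propria for 9 of 14 genes, and all 6 tested genes of recombination, hypermutation and switching were lower.

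Whether food allergy changed segments differently in the 2 tissues was tested as an interaction. Of 29 segments tested, 1 passed in edgeR's test, beside 0.449% of all genes (0.334% higher, 0.115% lower). For Ighv4-2 the log2 difference of the food allergy change, lamina propria minus Peyer's patches, was -4.54 (SE 0.98, adjusted p = 0.037 in edgeR's test). In the lamina propria it had 34, 21 and 26 UMIs in food allergy, against 40, 46 and 54 in controls. In Peyer's patches it had 5, 0, 0, 2 and 10 over dates 1 to 5 in food allergy, against 2, 0, 0, 0 and 2 in controls. No segment passed in DESeq2, with library size set to the Ighv sum, or without date 1 or date 2. Ighv4-2 did not pass without date 4 (adjusted p = 0.093 in edgeR's test). Its linked partner Ighv4-1 had a log2 difference of -2.71 and did not pass (adjusted p = 0.314 in edgeR's test).

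Within Peyer's patches, Jchain-high cells were set against B cells of the same date and condition, gated on B cell markers, Cd79a and Ms4a1 among them. Of 12 segments tested, 2 passed, both higher in Jchain-high cells, beside 19.8% of all genes (8.49% higher, 11.3% lower). With no filter beyond 1 UMI 9 of 103 passed, beside 12.4% (4.75% higher, 7.60% lower). Ighv4-1 had a log2 fold change of 2.64 (adjusted p = 0.023) and Ighv9-1 of 2.63 (adjusted p = 0.026 in edgeR's test). In Jchain-high cells Ighv4-1 reached 28.0, 0, 0, 18.8 and 20.6 TMM-scaled CPM over dates 1 to 5 in food allergy, against 1.38, 0.43, 0, 0 and 12.3 in controls. In B cells it had 2.96, 0, 0, 0 and 0 in food allergy, against 0.21, 0.24, 0, 4.35 and 0 in controls. Without date 2 or date 3 neither could be tested, and none of the 5 segments tested passed. Ighv4-1 did not pass without date 1 or without date 5 (adjusted p = 0.138 and 0.122 in edgeR's test). The plasma cell programme was higher in Jchain-high cells for 13 of 14 genes, Jchain among them, which the gate used. Between food allergy and control B cells 2 segments could be tested, Ighv5-6 and Ighv9-3, and none passed in edgeR's quasi-likelihood test (0 at an unadjusted p under 0.05, 0 by DESeq2), beside 0.0959% of all genes (0.0240% higher, 0.0719% lower).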

How the data were processed

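Cells of 27 single-cell libraries of mouse lamina propria and Peyer's patches were analysed as UMI counts per gene and cell, which the authors deposited with no normalization. Per the submitters' processing notes, bcl2fastq, Bowtie2, RSEM and Cell Ranger and the build mm10 were used over the whole series; their versions, and the Igh annotation that was used, are not given in the sources used here. Reads in similar V segments can be assigned to more than 1 segment or dropped by such counting, which would lower or split their UMIs. The 13 bulk libraries and Peyer's patch food allergy library 1, for which no cells were at hand, were not analysed here.

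The 121 symbols that start with Ighv, the gene lists, the gates and the tests were chosen with earlier results of these data known. Jchain-high cells had at least 20 Jchain UMIs. B cells had at least 2 UMIs over B cell markers, Cd79a and Ms4a1 among them, and the T and innate lymphoid gate at least 2 over Cd3d, Cd3e, Cd3g, Il7r and Thy1 with none of the B cell markers, both with fewer than 20 Jchain UMIs. Some genes of the gates and lists are not reported here by name. No doublet caller was run, and the filter that left these cells was the authors'.

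Counts of a gate were summed per library (lamina propria) or per title date and condition, with at least 10 cells (Peyer's patches). All genes were fitted in edgeR 4.0.16 (limma 3.58.1, R 4.3.3) with TMM factors, filterByExpr, the quasi-likelihood test and Benjamini-Hochberg adjustment at 0.05. DESeq2 1.42.0, RLE factors, factors from genes outside the immunoglobulin loci, Ighv sums as library sizes, no filter, other Jchain limits and leaving out libraries or dates were alternatives. The fits were tested on simulated data. Other values came from Python 3.11.15 (numpy 2.4.6, scipy 1.17.1, pandas 2.3.3), sequence identities from biopython 1.88, and positions and sequences from GENCODE M21 (GRCm38).

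Segments named were the 10 most used per tissue, up to 10 past the threshold per comparison, the 3 most often dominant per tissue and condition, the 5 most frequent heavy and light pairs, and those of pair groups with Ighg1 cells. Segments named for linkage, for single cells or as lost calls were chosen after their values were seen.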

Additional observations from a re-analysis of the deposited data

Results flagged for a closer look

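Peyer's patch library 8 of each condition, the only libraries of title date 4, stood apart from the others of their condition. In the T and innate lymphoid gate 39.8% of cells had an Ighv UMI in food allergy library 8, with the next library at 16.2%, and 36.4% in control library 8, with the next at 1.98%. Ighv UMIs over all cells numbered 1239 in food allergy library 8, with the next at 249, and 1455 in control library 8, with the next at 76. In Jchain-high cells control library 8 had 3.43 Ighv UMIs per 10000, with the next at 0.808. These 5 values came from 8 groups tested with Dixon's criterion, which chance exceeds in about 1 of 20 groups. The 8 groups were related quantities of the same food allergy and control libraries. They are therefore not independent, and the 5 values do not count as separate findings.

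The food allergy change of Ighv4-2 differed between the tissues, by -4.54 on the log2 scale, lamina propria nonTB minus Peyer's patches, in edgeR's interaction test. Its Peyer's patch values rest on 17 UMIs in food allergy and 4 in controls, and it was not tested there alone. In the lamina propria alone it did not pass (adjusted p = 0.059 in edgeR's test). Ighv4-1, which took UMIs in the same cells, had a difference of -2.71 and did not pass the interaction test.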

How the results depend on the processing

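For food allergy against control in the lamina propria, where 10 segments passed, 17 passed with Ighv sums as library sizes, 25 with no filter, 5 with Jchain of at least 10 UMIs and 1 with no title date term. With the replicate block 4 passed, beside 113 genes higher and 39 lower of 9290. The 5 with Jchain of at least 10 UMIs stood beside 94 genes higher and 46 lower of 9638. Deviations of same-numbered libraries correlated at 0.02, 0.05 and 0.07, and those of differently numbered libraries at -0.09 to 0.07. With 3 libraries a condition these values cannot show whether the replicate numbers pair libraries, beyond the shared title date of library 3. Leaving out 1 library gave 0 to 15. For lamina propria against Peyer's patches, 5 in the fit as designed, it was 0 with Ighv sums, 61 with no filter, 0 in DESeq2, 0 with dates 4 and 5 only, 1 with date 5 only, 2 with linked segments merged, and 0 to 5 without 1 date. There Ighv sums gave -0.31 for Ighv4-2, -0.24 for Ighv4-1 and -0.53 for Ighv5-6, and dates 4 and 5 only gave -0.040 for Ighv5-6. For the difference between tissues, 1 as designed, it was 0 with Ighv sums, 4 with no filter, 0 in DESeq2 and 0 to 5 without 1 date. For Jchain-high against B cells, 2 as designed, it was 0, 9 and 1 in the same order, and 0 to 2 without 1 date. Both food allergy comparisons in Peyer's patches gave 0 without any date. The causes were not tested.

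The share of Jchain-high nonTB cells with a dominant segment was 29.7% in food allergy and 33.1% in controls with at least 1 Ighv UMI, 2.36% and 2.32% with at least 5, 1.08% and 1.02% with a share of at least 80%, and 7.48% and 8.43% with linked segments merged. Without 1 library it was 4.96% to 5.74% in food allergy and 3.89% to 6.59% in controls.

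Depth is one limit. Most segments had few UMIs a library, Peyer's patch sums held 3 to 184 Ighv UMIs, and RNA outside Jchain-high cells carried Ighv UMIs in every library of the lamina propria. Alternatives with linked segments merged, with a cell counted once, or with chosen dates were added after seeing the data.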
